A study of Homo sapiens with 16 samples.

Results

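LSD1 binding was examined at the 8 genes that encode the core subunits of the transcription factor AP-1 and a close relative: JUN, JUNB, JUND, FOS, FOSB, FOSL1, FOSL2 and ATF3. For each gene, a fixed window of the hg19 genome was taken that holds the gene and its surroundings, 50 kb wide for 6 genes, 70 kb for FOSL2 and 110 kb for ATF3. All LSD1 islands overlapping a window by at least 1 base were counted as members. They numbered 91 of the 85586 islands in the 8 deposited lists. An island is a run of 200 bp stretches joined across gaps of up to 1000 bp. Reads from the immunoprecipitated (IP) chromatin exceeded those of the Input over the island as a whole. A covered share therefore does not mean that every stretch within it exceeded the Input.

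AP-1 is a dimer of basic leucine zipper proteins. Jun proteins pair with each other or with Fos proteins, Fos proteins need a Jun partner, and the dimers bind the AP-1 site or the related cyclic AMP response element (CRE). Many of these genes are immediate early genes, switched on within minutes by growth factors or stress, and AP-1 is known in epithelial cells for driving migration and the epithelial-mesenchymal transition. LSD1 (KDM1A) is a histone demethylase that removes methyl groups from lysine 4 of histone H3 and is found in repressor complexes such as CoREST.

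LSD1 was mapped by chromatin immunoprecipitation and sequencing in 4 HEK-based lines (human embryonic kidney), with an anti-Lsd1 antibody, in 2 independent cultures per line, each with its own Input. The labels give only the names of the lines, with the Δ written out as <delta>, and what follows on them is background. Epi-CTR serves as control. Epi-HOT makes the long non-coding RNA HOTAIR, which is known to bind both LSD1 and the Polycomb complex PRC2. Epi-HOTΔP makes a form lacking the part that binds PRC2, and Epi-HOTΔL a form lacking the part that binds LSD1. Each form was studied in a single line, so a form and the line that carries it cannot be told apart, and whether a line is 1 clone is not given in the labels used here. No markers of cell identity could be checked, since the lists hold no expression values.

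The lists held between 1116 and 20592 islands, with no reads or library totals, so depth is unknown and a window without an island may hold fewer reads rather than none. Epi-HOT replicate 2 and Epi-HOTΔP replicate 1 stood apart: they had the fewest islands, 1778 and 1116, and only 0.394% and 0.358% of these lay on chromosome 19, against 5.40% to 6.94% in the other 6 libraries. JUNB, JUND and FOSB lie on that chromosome. Neither of these libraries had an island in any of the 8 windows, so comparisons that rest on them are also given without them.

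The RefSeq promoter table holds the 250 bases before and 50 bases after the start of 7 of the 8 genes, with 2 entries for ATF3 and none for FOSL1. These come from GRCh38.p14, a different build from the hg19 of the islands, so islands could not be placed relative to the start sites. Both strands of the 300 bases were searched for the AP-1 site TGANTCA, the CRE TGACGTCA, its variant TGACATCA and the E-box CAGGTG, which is known to be bound by the LSD1 partner SNAI1. JUN and the first ATF3 entry held the variant TGACATCA, at 67 and 123 bases before the start, and JUND held the CRE 200 bases before it. FOSL2 held the AP-1 site as TGACTCA at base 5 after the start. The other 4 entries, of JUNB, FOS, FOSB and the second of ATF3, held none of these motifs. Over all 35116 promoters of the table, TGANTCA was found in 7.71%, TGACGTCA in 1.85%, TGACATCA in 2.61% and CAGGTG in 20.6%.

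The upstream 250 bases are shown for JUN, JUND and ATF3, the genes with a CRE-type motif there, 5′ to 3′ along the gene's strand with the motif in capitals. They are chr1:58784048-58784297 (minus strand), chr19:18281623-18281872 (minus strand) and chr1:212565157-212565406 (plus strand) of GRCh38.p14.
JUN: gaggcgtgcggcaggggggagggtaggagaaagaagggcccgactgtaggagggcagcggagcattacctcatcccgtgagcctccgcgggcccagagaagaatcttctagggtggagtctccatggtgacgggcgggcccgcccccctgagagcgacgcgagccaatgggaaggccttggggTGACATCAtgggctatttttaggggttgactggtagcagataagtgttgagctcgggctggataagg
JUND: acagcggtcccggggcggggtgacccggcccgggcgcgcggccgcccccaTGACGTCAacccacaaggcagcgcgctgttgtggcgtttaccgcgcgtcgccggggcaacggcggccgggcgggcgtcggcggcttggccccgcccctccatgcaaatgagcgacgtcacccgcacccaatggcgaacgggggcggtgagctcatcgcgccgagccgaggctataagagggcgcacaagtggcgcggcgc
ATF3: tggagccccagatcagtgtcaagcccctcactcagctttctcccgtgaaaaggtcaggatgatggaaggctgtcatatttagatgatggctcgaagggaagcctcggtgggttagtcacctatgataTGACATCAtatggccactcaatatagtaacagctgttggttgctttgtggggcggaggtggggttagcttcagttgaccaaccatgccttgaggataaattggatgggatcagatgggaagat
The JUND entry was rich in G and C, at 77.0% with 49 CpG pairs, against medians of 58.7% and 14 over all promoters. JUN had 62.0% and 16 CpG pairs, and the first ATF3 entry 48.0% and 4. The second ATF3 entry was lower still, at 46.3% with 1 CpG pair.

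Within the Jun family, JUND and JUNB were broadly covered by LSD1 islands and JUN carried a single short one. JUN encodes the founding Jun subunit, a strong activator, and its window was chr1:59220001-59270000. Islands covered 17.2% and 11.2% of it in Epi-CTR replicates 1 and 2, 8.8% in Epi-HOT replicate 1 and 12.8% in Epi-HOTΔL replicate 2, and the other 4 libraries had none. Each of these libraries had a single island, and all of them overlapped at the same place. In Epi-CTR replicate 1 it ran from 59245401 to 59254000 with a false discovery rate (FDR, the authors' adjusted p of IP over Input) of 8.26e-11. It started at 59247401 in the other 3 libraries, and the 4.4 kb from 59247401 to 59251800 were common to all 4. Its FDR in these was 0.000157 in the other control library, 0.00140 in Epi-HOT replicate 1 and 0.000495 in Epi-HOTΔL replicate 2. Epi-HOTΔL replicate 1 lacked this island, and its nearest one lay 9.0 kb beyond the right edge of the window. The Epi-CTR replicates (8.2 and 7.6 kb) and Epi-HOT replicate 1 (8.8 kb) also had an island at about this distance. In Epi-HOTΔL replicate 2 the nearest on that side lay 236.6 kb away.

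JUNB encodes a Jun subunit known to restrain JUN in some settings, and its window was chr19:12880001-12930000. The covered share was 46.4% and 67.6% in the Epi-CTR replicates, 100% and 0% in the Epi-HOT replicates, 0% in both Epi-HOTΔP replicates, and 52.0% and 100% in the Epi-HOTΔL replicates. The same stretch was thus held by 4 short islands in Epi-CTR replicate 1, of 2.4 to 10.8 kb, and by single islands of 81.6 kb in Epi-HOT replicate 1 and 76.2 kb in Epi-HOTΔL replicate 2. Those 4 ran from 12880601 to 12887200 (FDR 0.00561), 12888401 to 12890800 (1.79e-07), 12892601 to 12896000 (1.52e-07) and 12897601 to 12908400 (9.36e-07). Epi-CTR replicate 2 had islands from 12882401 to 12891200 (0.00149), 12892401 to 12908400 (0.00326) and 12910201 to 12919200 (0.0437). In Epi-HOTΔL replicate 1 a single island ran from 12880401 to 12906400, at an FDR of 1.52e-05 and rank 649. The 8.8 kb from 12897601 to 12906400 were covered in all 5 libraries with an island. The 76.2 kb island, from 12855401 to 12931600, had an FDR of 2.55e-18 and ranked 319 in its list, while the Epi-HOT island, from 12851601 to 12933200, was near the threshold, at 0.0396. Islands this wide also reach beyond the gene: the nearest protein-coding neighbours of JUNB in the gene table are HOOK2 and PRDX2. Epi-HOTΔP replicate 2 had no island in the window, but had one 9.6 kb from it and 11 within 500 kb.

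JUND encodes the Jun subunit that is present in most cells without stimulation. In its window, chr19:18370001-18420000, the covered share was 53.6% and 68.4% in Epi-CTR, 97.2% and 0% in Epi-HOT, 0% and 30.4% in Epi-HOTΔP, and 26.8% and 100% in Epi-HOTΔL. All 6 libraries outside the pair that stood apart shared the 4.6 kb from 18400601 to 18405200. Islands of JUND ranked high by FDR: 73 of 14938 in Epi-CTR replicate 2 (4.99e-19), 35 of 6557 in Epi-HOT replicate 1 (2.98e-16, an island of 130.6 kb) and 54 of 16768 in Epi-HOTΔL replicate 1 (1.62e-09). The best in Epi-CTR replicate 1, from 18397801 to 18405200, had an FDR of 6.52e-17, and that of Epi-HOTΔL replicate 2, 78.0 kb wide, 1.25e-15; each ranked 454 in its list. In Epi-HOTΔP replicate 2 the better of its islands, from 18397801 to 18405800, ranked 4393 of 8079 (0.00398). Its neighbours in the gene table are IQCN and LSM4.

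**Figure D1:**
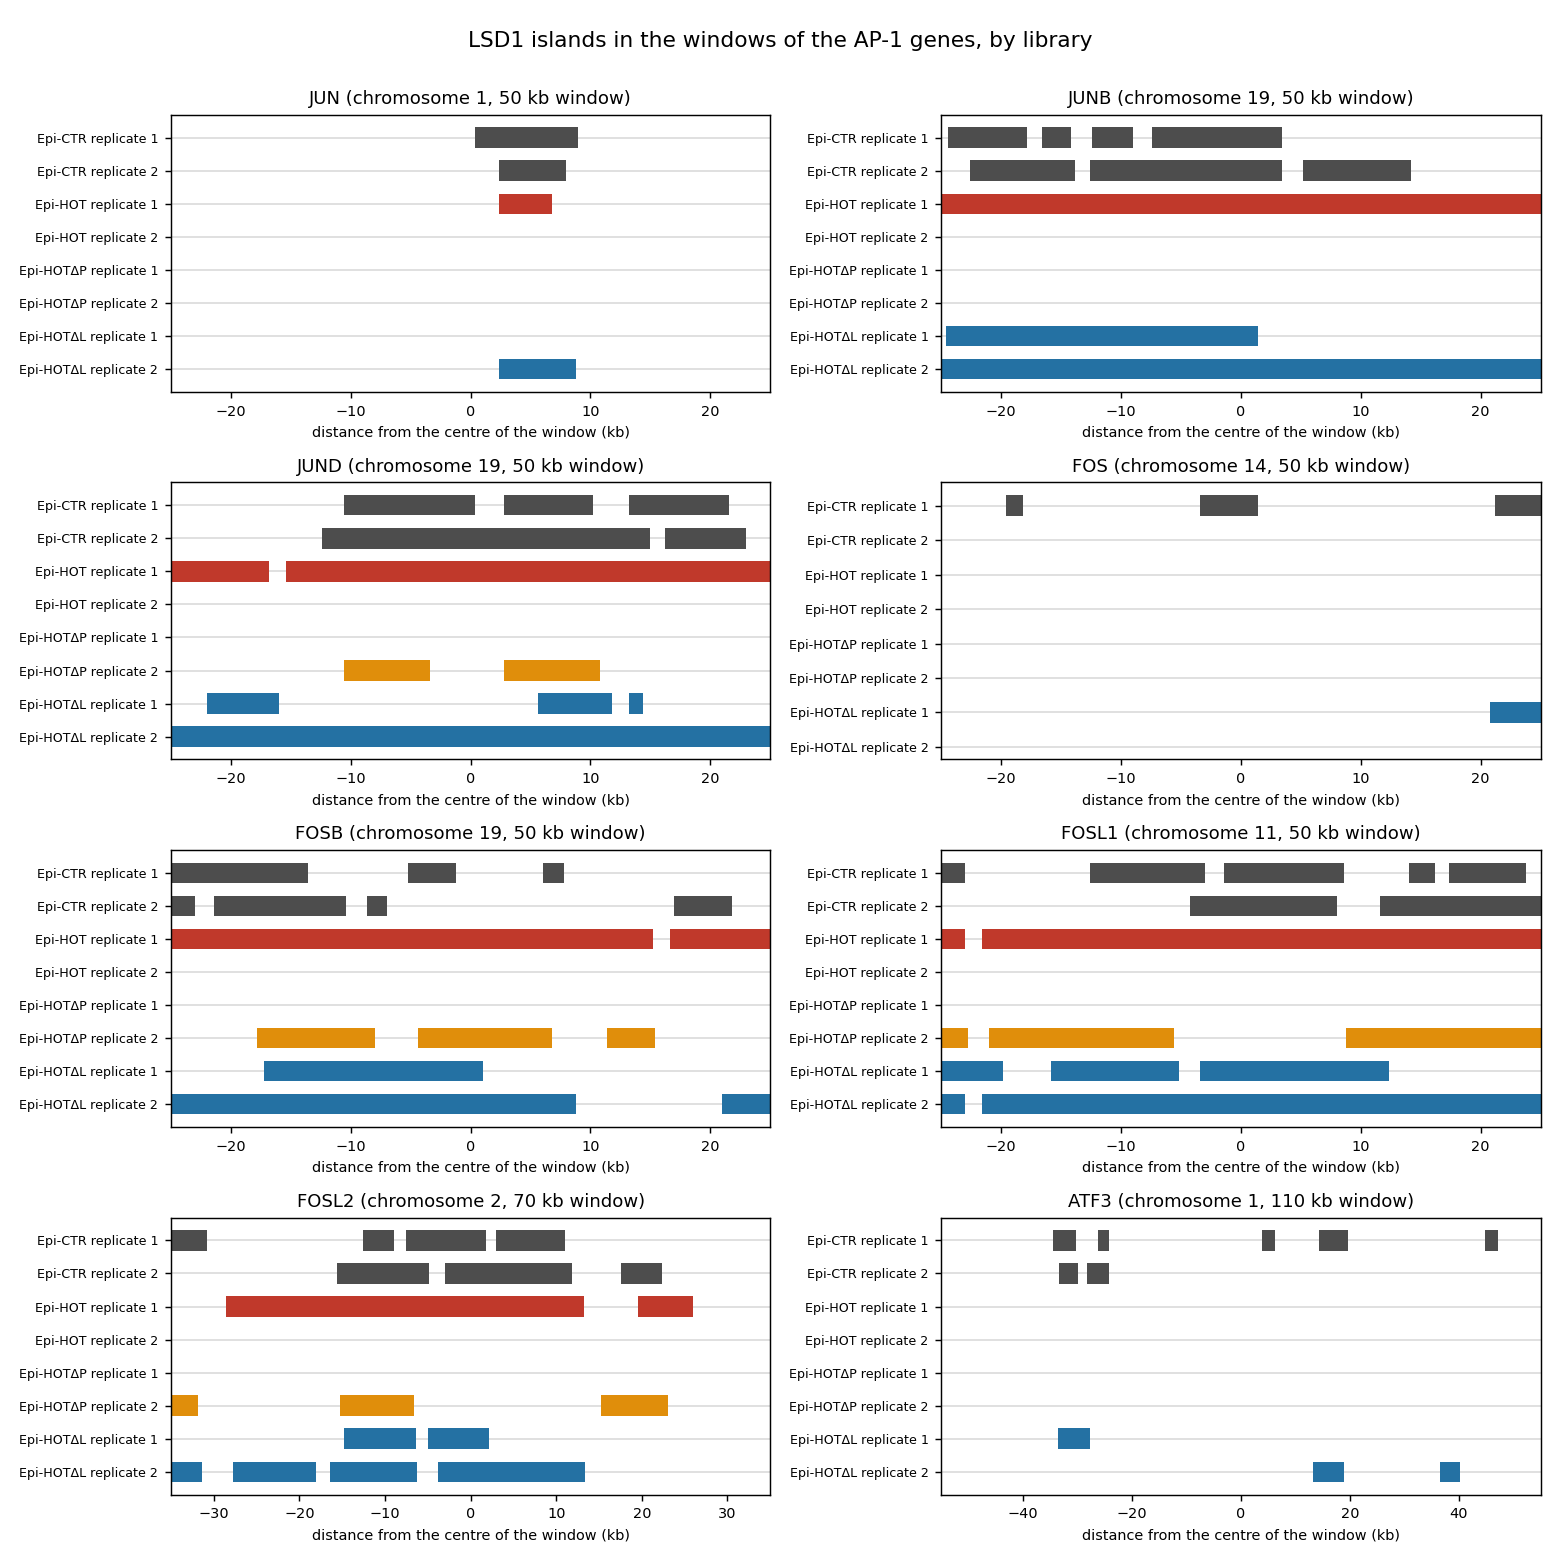
LSD1 islands (bars, cut at the window's edges) in the window of each AP-1 gene, with 1 line per library and the distance from the window's centre in kb on the horizontal axis. Colours mark the 4 lines. Epi-HOT replicate 2 and Epi-HOTΔP replicate 1 are empty in all 8 windows, and the 4 JUN islands share 4.4 kb.

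Among the Fos family, FOSB, FOSL1 and FOSL2 had islands in the same 6 libraries as JUND, while FOS had islands in only 2. FOS encodes c-Fos, the classical immediate early Fos protein. Islands covered 20.0% of its window, chr14:75720001-75770000, in Epi-CTR replicate 1 and 8.4% in Epi-HOTΔL replicate 1, and 0% in the other 6 libraries. None ranked high, the best being an island of 4.8 kb from 75741601 in Epi-CTR replicate 1 with an FDR of 9.59e-05, ranked 8874 of 20592. The others of that library ran from 75725401 to 75726800 (0.0117) and from 75766201 to 75771200 (0.00498), and the one of Epi-HOTΔL replicate 1 from 75765801 to 75772000 (0.00680). What both libraries shared was a stretch at the right edge of the window, from 75766201 to 75770000. In Epi-CTR replicate 2 the nearest island was 3.8 kb outside the window, and in Epi-HOT replicate 1 it was 516.4 kb away.

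FOSB encodes a Fos protein that also has a short, truncated form. Its window, chr19:45950001-46000000, was covered to 34.4% and 38.8% in Epi-CTR, 97.2% and 0% in Epi-HOT, 0% and 50.0% in Epi-HOTΔP, and 36.4% and 75.6% in Epi-HOTΔL. The 3.6 kb from 45957801 to 45961400 were covered in all 6 libraries. Its island of smallest FDR, from 45949401 to 45961400 in Epi-CTR replicate 1, had an FDR of 3.07e-28 and ranked 99, and Epi-CTR replicate 2 had an island from 45953601 to 45964600 at 3.40e-15, ranked 155. The best island of Epi-HOTΔP replicate 2, from 45957201 to 45967000, had an FDR of 8.28e-08 and ranked 216. Epi-HOTΔL replicate 2 reached 1.04e-13 over 67.6 kb and Epi-HOT replicate 1 reached 1.43e-05 over 84.8 kb, the widest island at this gene, while the single island of Epi-HOTΔL replicate 1 was weak, at 0.0317. The overlap of the Epi-CTR replicates within the window had a Jaccard index (shared bases over bases in either) of 0.366, against 0.723 at JUND. ERCC1 and RTN2 are its protein-coding neighbours.

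FOSL1 encodes FRA1, a Fos protein without a strong activation domain that is known for its part in invasive epithelial cells. In its window, chr11:65640001-65690000, the share was 60.4% and 51.2% in Epi-CTR, 97.2% and 0% in Epi-HOT, 0% and 67.6% in Epi-HOTΔP, and 63.2% and 97.2% in Epi-HOTΔL. Among the 6 libraries that held islands, the share was never under 51.2%. No base was common to all 6, and the deepest stretches, such as 65663601 to 65673000, were held by 5. At the left edge, islands ended at 65642000 in Epi-CTR replicate 1, Epi-HOT replicate 1 and Epi-HOTΔL replicate 2. The next began at 65643401 in both Epi-HOT replicate 1, where it was 73.6 kb wide, and Epi-HOTΔL replicate 2. In Epi-CTR replicate 1 it began only at 65652401. Epi-HOTΔP replicate 2 had a break close by, with an island ending at 65642200 and the next from 65644001. This boundary was not common to all libraries: an island of Epi-HOTΔL replicate 1 ran across it, from 65637801 to 65645200. Epi-CTR replicate 2 had no island there. FOSL1's best FDR was 1.01e-19, in Epi-CTR replicate 1 from 65682401 to 65688800. The best island in the other libraries had an FDR of 3.86e-07 in the other control library, 0.00345 in Epi-HOT replicate 1, 4.42e-05 in Epi-HOTΔP replicate 2, and 0.00124 and 1.94e-07 in the Epi-HOTΔL replicates. CCDC85B and C11orf68 are its neighbours.

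FOSL2 encodes FRA2 and held the island with the smallest FDR in the 8 windows. In its window, chr2:28590001-28660000, the share was 36.0% and 43.4% in Epi-CTR, 68.9% and 0% in Epi-HOT, 0% and 28.0% in Epi-HOTΔP, and 22.3% and 58.3% in Epi-HOTΔL. The leading island, 3.6 kb from 28612401 to 28616000 in Epi-CTR replicate 1, had an FDR of 1.24e-36 and ranked 42 of 20592. The same 3.6 kb were covered in all 6 libraries with islands in the window. In the other libraries the island over it had an FDR between 7.30e-09, in Epi-HOTΔL replicate 2, and 0.0237, in Epi-HOTΔL replicate 1. It was 2.57e-05 in Epi-CTR replicate 2, 0.000185 in Epi-HOTΔP replicate 2 and 7.41e-06 in Epi-HOT replicate 1, where the island was 41.8 kb wide. BABAM2 and PLB1 are the neighbours of FOSL2. FOSL2 stood alone in its surroundings in Epi-HOT replicate 1, where islands covered 0.94% of the 500 kb on either side.

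ATF3, a stress-induced factor that can pair with Jun proteins and often represses, had short islands in the libraries of Epi-CTR and Epi-HOTΔL only. The window, chr1:212710001-212820000, was covered to 14.7% and 6.91% in Epi-CTR and 5.45% and 8.55% in Epi-HOTΔL, and to 0% in both replicates of Epi-HOT and of Epi-HOTΔP. Islands were short, at 2.0 to 6.0 kb, and up to 110 kb were searched, so a low share here is not comparable with a 50 kb window. Epi-CTR replicates 1 and 2 and Epi-HOTΔL replicate 1 shared 3.2 kb from 212731601 to 212734800. Epi-HOTΔL replicate 2 had no island there and held 2 others instead, from 212778201 to 212784000 and from 212801601 to 212805200. Their FDR was 0.0126 and 5.51e-06. The first of these overlapped an Epi-CTR replicate 1 island from 212779401 to 212784600. The islands over the shared stretch were those from 212730601 to 212734800 in Epi-CTR replicate 1 (2.78e-07), 212731601 to 212735200 in Epi-CTR replicate 2 (0.0136) and 212731401 to 212737400 in Epi-HOTΔL replicate 1 (0.000890). Islands ending at 212740800 also stood in both Epi-CTR libraries, from 212738801 (0.000477) and from 212736801 (0.0443). Epi-CTR replicate 1 had further ones from 212768801 to 212771200 (0.00424) and 212809801 to 212812200 (0.0437), and its island from 212779401 had an FDR of 4.95e-07. The Epi-HOTΔL replicates thus had no covered base in common. Its protein-coding neighbours are NENF and GARIN4. In Epi-HOT replicate 1 the nearest island lay 7.8 kb outside the window, and in Epi-HOTΔP replicate 2 it lay 21.0 kb outside.

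**Figure D2:**
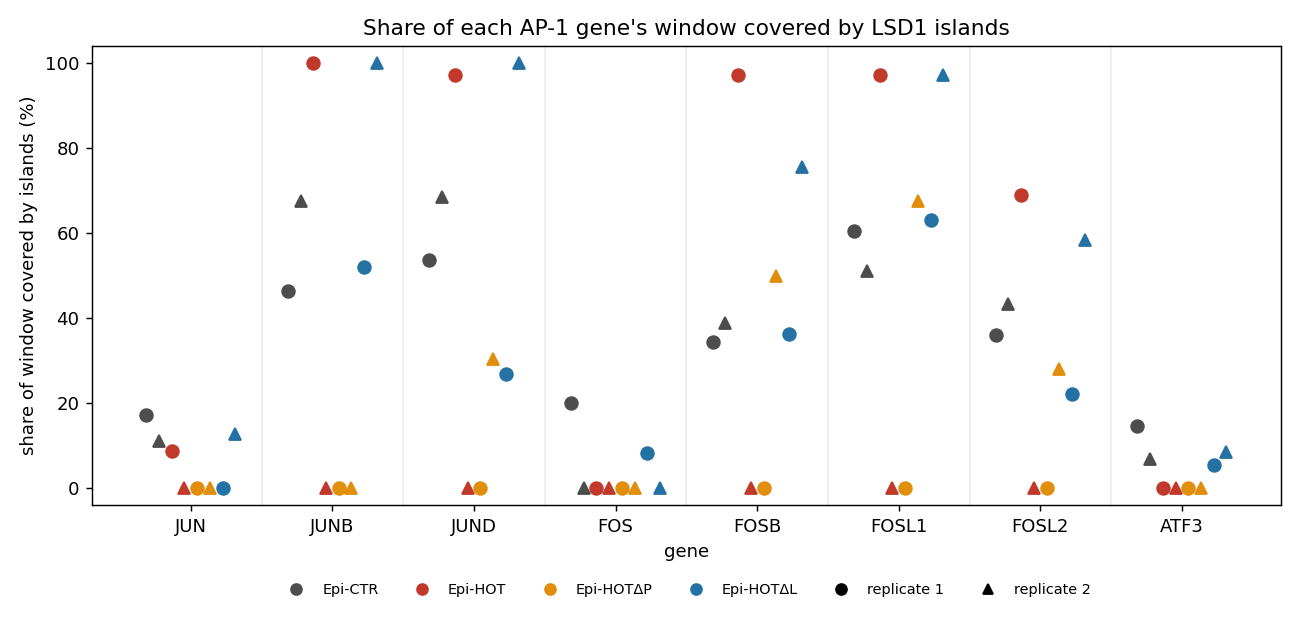
Share of each gene's window covered by LSD1 islands (%), with 1 point per library, coloured by line; circles are replicate 1 and triangles replicate 2. JUNB, JUND, FOSB, FOSL1 and FOSL2 spread from 0% to between 68.9% and 100%, while JUN, FOS and ATF3 stay at or under 20.0%.

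The AP-1 windows held islands in most of the 6 larger lists. All 8 windows held one in Epi-CTR replicate 1, 7 did in the other control library, 6 in Epi-HOT replicate 1, 4 in Epi-HOTΔP replicate 2 and 7 in each Epi-HOTΔL library. Over all 55725 windows of 50 kb tiled along the autosomes, the shares with an island in these libraries were 24.2%, 20.2%, 12.6%, 12.9%, 22.4% and 22.7%, in that order. On chromosome 19 alone, which is rich in genes, they were 46.0%, 48.9%, 35.9%, 33.8%, 55.1% and 59.6%. In Epi-HOT replicate 2 and Epi-HOTΔP replicate 1, with 0 of 8 AP-1 windows, the shares over all windows were 3.4% and 2.0%, and on chromosome 19 they were 0.595% and 0.34%. Tiled windows include stretches without genes, and the FOSL2 and ATF3 windows are wider than a tile, so these shares are not matched to the genes.

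By number of libraries, 4 genes (JUND, FOSB, FOSL1 and FOSL2) had islands in 6, JUNB in 5, JUN and ATF3 in 4 and FOS in 2. Of all tiled windows 2.47% had islands in at least 6 libraries, and on chromosome 19 the share was 15.6%. The exact set of 6 libraries seen at these 4 genes was also the set of 1097 tiled windows (1.97%). The sets seen at JUNB, ATF3, FOS and JUN were those of 610, 758, 429 and 257 tiled windows.

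**Figure D3:**
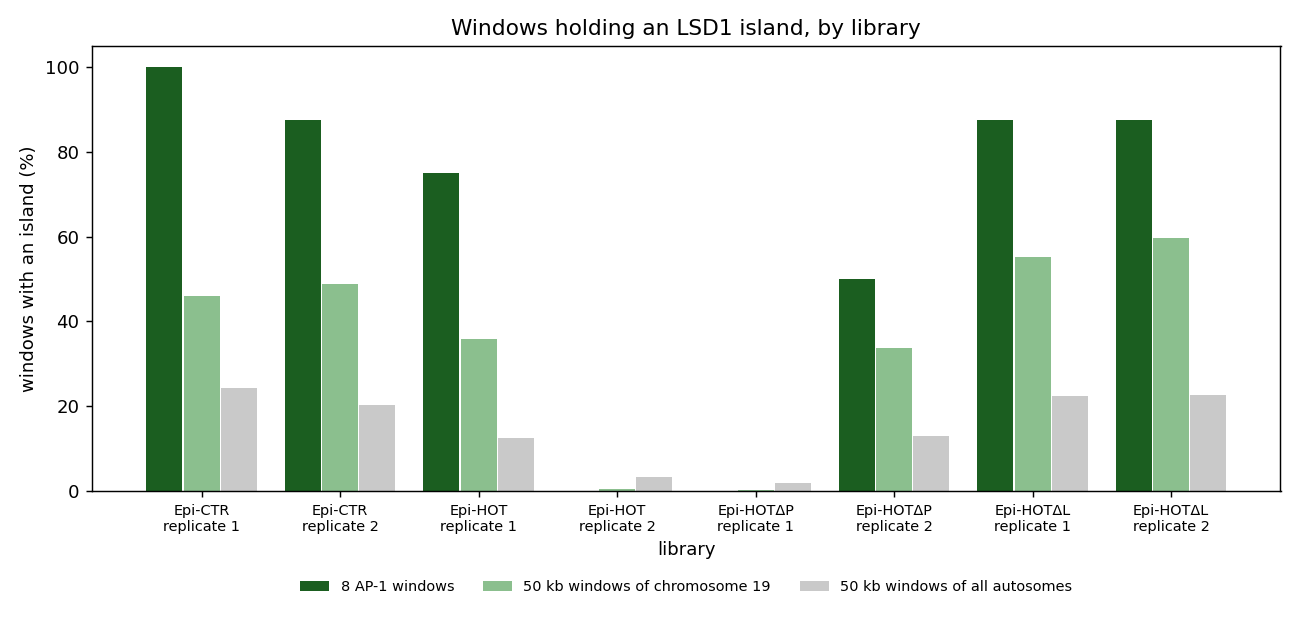
Percentage of windows with at least 1 LSD1 island (vertical axis) in each library, for the 8 AP-1 windows and for 50 kb windows tiled along chromosome 19 or along all autosomes. The AP-1 bars are at 100%, 87.5%, 75.0%, 50.0%, 87.5% and 87.5% in the libraries that have islands there, and at 0% in the other 2.

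Where an AP-1 window held an island, the window was covered more densely than its surroundings. This was so in all 39 of the 39 pairs of a window and a library with an island, compared with the 500 kb on either side, at ratios from 1.13 to 73.3 (median 2.86). Among tiled windows with an island in the same 6 libraries, 73.0% to 86.6% exceeded their surroundings, with median ratios from 1.70 to 3.28. FOSL2 had the highest median ratio of the 8 genes, 6.08, and its surroundings were covered to between 0.94% and 13.1%. JUND had the lowest median ratio, 1.45, and its surroundings were covered to between 23.1% and 87.7%. FOSB was alike, with a median ratio of 1.70 and surroundings at 17.3% to 63.9%.

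**Figure D4:**
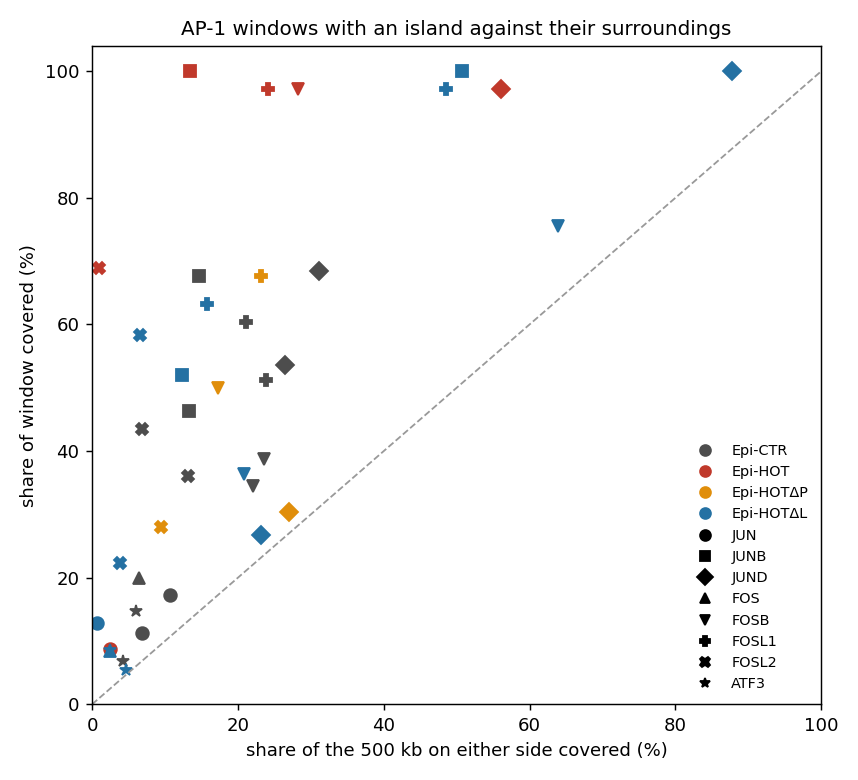
Share of each AP-1 window covered by islands (%, vertical) against the share of the 500 kb on either side (%, horizontal), for the 39 pairs of window and library with an island; colours mark lines and symbols genes, and the dashed line marks equal shares. All points lie above the line. The median ratio of the shares was highest for FOSL2 (6.08) and lowest for JUND (1.45).

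Islands at AP-1 windows were widest in Epi-HOT replicate 1. The median width of the islands at AP-1 windows was 57.7 kb in Epi-HOT replicate 1 and 18.4 kb in Epi-HOTΔL replicate 2, against 5.1 to 9.8 kb in the other 4 libraries. The islands that 50 kb tiles met had median widths of 7.8 kb and 9.0 kb in the first pair and 3.8 to 8.8 kb in the rest. These tiles cover all autosomes, and no width is given for chromosome 19 alone, where JUNB, JUND and FOSB lie. Of the 91 AP-1 islands, 23 (25.3%) were among the first 10% of their list by FDR; 9 of these were in Epi-CTR replicate 1, 5 in Epi-CTR replicate 2 and 5 in Epi-HOTΔL replicate 2.

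For each pair of lines, a window was called gained if the 2 libraries of the line named first had an island there and those of the other line had none. It was called lost if the reverse was true, and kept if all 4 had one. Epi-HOT and Epi-CTR differ in full-length HOTAIR. In Epi-HOT against Epi-CTR, only ATF3 was lost (1 of 8, against 7.61% of tiled windows and 13.5% of those on chromosome 19). None was gained (0.0843% and 0.085%) or kept (0.499% and 0.34%), and the other 7 were split within a line. Neither call was possible, since Epi-HOT replicate 2 held no island at any AP-1 window. The loss of ATF3 was not called with islands of an FDR up to 0.001, where JUN and FOSL1 were lost instead, nor in the central 20 kb of the window, where none was. Nor was it called with lists of equal length, where FOSL1 was lost, or where islands had to cover 10% of the window, where JUN was. Shares of tiled windows under such settings are not given, here or in the comparisons below. Epi-HOT replicate 1 covered more of JUNB, JUND, FOSB, FOSL1 and FOSL2 than both Epi-CTR libraries did, and less of JUN and ATF3. Over tiled windows, its share was above both in 8.6% and below both in 9.86%, and on chromosome 19 in 26.3% and 17.1%. Epi-HOT replicate 2, with no island in any AP-1 window, lay below both Epi-CTR libraries wherever both had one. These were 7 windows, all but FOS, against 12.9% of tiled windows and 37.8% on chromosome 19. Without Epi-HOT replicate 1, 7 windows were lost (12.6% of tiled windows). Without Epi-HOT replicate 2, the only loss was still ATF3 (8.6%), and without Epi-CTR replicate 2, FOS was lost too (14.8%). JUN, JUNB, JUND, FOSB, FOSL1 and FOSL2 held islands in Epi-HOT replicate 1 and in both Epi-CTR libraries. The share of tiled windows with islands in all of these libraries is not given.

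Epi-HOTΔL and Epi-HOT differ in the part of HOTAIR that binds LSD1. In Epi-HOTΔL, ATF3 was gained (1 of 8, against 7.34% of tiled windows and 18.8% on chromosome 19). No window was lost (0.187% and 0.0%) or kept (0.275% and 0.425%), since Epi-HOT replicate 2 held no island at any. Without Epi-HOT replicate 1, 6 windows were gained (JUNB, JUND, FOSB, FOSL1, FOSL2 and ATF3), against 12.8% of tiled windows, and without Epi-HOT replicate 2 ATF3 alone was (7.61%). Without Epi-HOTΔL replicate 2, FOS joined it (14.1%). The gain of ATF3 rests on islands at different places in the Epi-HOTΔL replicates, and it was not called in the central 50 kb or 20 kb, or where islands had to cover 10% of the window. With lists of equal length JUNB was gained in its place. With an FDR up to 0.001, JUNB was gained as well.

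Removal of the part that binds PRC2 separates Epi-HOTΔP from Epi-HOT. No window was gained (0.321% of tiled windows, 0.0% on chromosome 19), lost (0.515% and 0.085%) or kept (0.0538% and 0.0%). None of these calls was possible here, since Epi-HOT replicate 2 and Epi-HOTΔP replicate 1 held no island at any AP-1 window. FOS and ATF3 had no island in any of the 4 libraries, and the other 6 windows had islands in 1 or 2 of them. Leaving out the libraries that stood apart, Epi-HOTΔP replicate 2 lacked the islands of JUN and JUNB that Epi-HOT replicate 1 had. These 2 of 8 windows compare with 16.3% of tiled windows that changed either way in this pair of single libraries.

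Against Epi-CTR, Epi-HOTΔL kept 6 of 8 windows (JUNB, JUND, FOSB, FOSL1, FOSL2 and ATF3), where 6.64% of all tiled windows and 30.7% of those on chromosome 19 were kept. None was gained (2.64%, and 5.1% on chromosome 19) or lost (2.68% and 0.935%), and JUN and FOS were split. The mean covered share in Epi-CTR and Epi-HOTΔL was 57.0% ± 15.0 and 76.0% ± 33.9 (SD, n = 2) for JUNB, 61.0% ± 10.5 and 63.4% ± 51.8 for JUND, and 36.6% ± 3.11 and 56.0% ± 27.7 for FOSB. It was 55.8% ± 6.51 and 80.2% ± 24.0 for FOSL1, 39.7% ± 5.25 and 40.3% ± 25.5 for FOSL2, and 10.8% ± 5.53 and 7.0% ± 2.19 for ATF3. With islands of an FDR up to 0.001 only JUND was kept. In the central 50 kb or 20 kb, the same windows except ATF3 were kept. Epi-HOTΔL replicate 2 lay above both Epi-CTR libraries in 5 windows, JUNB, JUND, FOSB, FOSL1 and FOSL2 (17.6% of tiled windows and 54.2% on chromosome 19). Epi-HOTΔL replicate 1 did so at FOSL1 alone (12.3% and 28.4%). It lay below both at JUN, JUND, FOSL2 and ATF3 (8.78% and 17.3%).

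Epi-HOTΔP lost JUN, JUNB and ATF3 relative to Epi-CTR (3 of 8, against 7.53% of tiled windows and 12.7% on chromosome 19). It kept none (0.242% and 0.085%) and gained none (0.167% and 0.0%). Neither call was possible, since Epi-HOTΔP replicate 1 held no island at any AP-1 window. The same 3 were lost without Epi-HOTΔP replicate 1, against 7.83% of tiled windows, and 7 were lost without replicate 2, against 13.6%. JUND, FOSB, FOSL1 and FOSL2 held islands in Epi-HOTΔP replicate 2 and in both Epi-CTR libraries. The share of tiled windows with islands in all of these libraries is not given. Epi-HOTΔP replicate 2 covered more of FOSB and FOSL1 than both Epi-CTR libraries did (8.5% of tiled windows and 14.8% on chromosome 19). It covered less of JUN, JUNB, JUND, FOSL2 and ATF3 (9.31% and 21.7%). With lists cut to the 1116 islands of smallest FDR, only JUND was lost. With an FDR up to 0.001, JUN and JUND were lost, and in the central 20 kb, or with 10% of the window covered, JUN and JUNB were. The comparisons with Epi-CTR share its libraries, and those with Epi-HOT share the Epi-HOT libraries. With 2 libraries a line, a two-sided exact permutation test cannot go below 0.333, so none was made between single lines.

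The 4 libraries of Epi-HOT and Epi-HOTΔP, whose HOTAIR keeps the LSD1-interacting part, were also compared with the 4 of Epi-CTR and Epi-HOTΔL. The mean covered share was lower in the former for all 8 genes. This was so in 34.8% of all tiled windows, many of which had no island in any library, and in 79.5% of the 24421 tiled windows with an island in at least 1 library. The means were 25.0% ± 50.0 and 66.5% ± 24.1 (SD, n = 4) for JUNB, 31.9% ± 45.8 and 62.2% ± 30.5 for JUND, and 41.2% ± 49.1 and 68.0% ± 20.1 for FOSL1. They were 36.8% ± 46.7 and 46.3% ± 19.6 for FOSB and 24.2% ± 32.6 and 40.0% ± 15.0 for FOSL2, and no more than 10.3% in either arm for JUN, FOS and ATF3. Only at ATF3 did the arms not overlap, with 0% in 4 of 4 libraries against 8.91% ± 4.08 (two-sided exact permutation p = 0.0286, the smallest that 70 splits allow). Over tiled windows, 1.76% had an unadjusted p under 0.05 with a lower share. These tiles are 50 kb wide and the ATF3 window 110 kb, so this share is not matched to ATF3. In its central 50 kb, ATF3 was no longer kept in Epi-HOTΔL against Epi-CTR. Not every library of those lines thus held an island there, and the gap between the arms depends on the width of the window. With islands of an FDR up to 0.001, with lists of equal length, or in the central 20 kb, no gene had an unadjusted p under 0.05. Without Epi-HOT replicate 2 and Epi-HOTΔP replicate 1, none had either, and ATF3 had an exact permutation p of 0.0667, the smallest that 15 splits allow. Without Epi-HOT replicate 1 alone, JUNB and ATF3 both had an exact permutation p of 0.0286, the smallest that 35 splits allow. In that setting 0.768% of tiled windows had an unadjusted p under 0.05 with a lower share. JUNB then had 0% in every remaining library of Epi-HOT and Epi-HOTΔP.

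No gene passed after Benjamini-Hochberg adjustment over 55733 windows in the exact permutation test (adjusted p = 1 for each of the 8). Of the tiled windows, 0 of 55725 (0.0%) passed. None could have passed, since the exact permutation p cannot go below 0.0286. Only 24421 tiled windows held an island in any library, too few for an adjusted p under 0.05 at that limit. The adjusted result therefore decides nothing about these genes. Before adjustment, 1 gene had an exact permutation p under 0.05. For the other 7 genes the unadjusted exact permutation p was between 0.143 and 0.686. Without Epi-HOT replicate 2 and Epi-HOTΔP replicate 1, the lower mean held for JUN, JUNB, FOS and ATF3 and turned for JUND (63.8% against 62.2%), FOSB (73.6% against 46.3%), FOSL1 (82.4% against 68.0%) and FOSL2 (48.4% against 40.0%). Both libraries of a line come from that 1 line, and an exact test over 2 lines against 2 cannot go below 0.333.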

How the data were processed

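The members and the lists were chosen with earlier results of these data known. Per the submitters' processing notes, Bowtie2 2.1.0, SICER 1.1 and the build hg19 were used, without the step of each. Per the labels, islands were called by the authors with a window of 200 bp, a gap of 1000 bp and an FDR of 0.05, on each culture separately; what a further filter removed is not stated. Each deposited island carries 1 value, the FDR (a p-value of IP over Input, adjusted by the authors' caller). Islands were ranked by it within a list. Depth is unknown.

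Island starts were counted from 0 in the lists and ends were inclusive, since starts were multiples of 200; coordinates are printed counted from 1. Windows were taken from the list of genes, and presence and covered share were computed per library, beside 55725 tiled windows of 50 kb on 22 autosomes, from the first to the last island of any list. Arms of 4 libraries were compared by a two-sided exact permutation test, adjusted by Benjamini-Hochberg over all windows. All 8 genes were named by rule, with every island of genes that had at most 10 and otherwise the best per library and the widest. The tiling and the test were tested on simulated data. Alternatives were an FDR of 0.001, lists of equal length, the central 20 kb, an island over at least 10% of the window, a replicate block and each library left out; the central 50 kb and leaving out both libraries that stood apart were added after seeing the data. Other AP-1 family genes were not analysed here. Computations used scipy 1.17.1, numpy 2.4.6 and pandas 2.3.3 under Python 3.11.15, with figures by matplotlib 3.10.9.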

Additional observations from a re-analysis of the deposited data

Results flagged for a closer look

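Of 16 groups of 4 libraries (8 genes in each of the arms of the last comparison), 14 had any spread, and 3 of these had a library far from the other 3. For continuous values, chance gives about 1 in 20 groups. At JUN and JUNB the other 3 values are all 0, so any library with an island would stand out. At JUN, Epi-HOT replicate 1 had a covered share of 8.8% where the other 3 libraries of Epi-HOT and Epi-HOTΔP had 0%. At JUNB the same library had 100% against 0% in those 3. At FOSB, Epi-HOTΔL replicate 2 had 75.6%, against 34.4% to 38.8% in Epi-HOTΔL replicate 1 and both Epi-CTR libraries.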

How the results depend on the processing

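With an FDR of up to 0.001, 2 windows (JUN and FOSL1) were lost in Epi-HOT against Epi-CTR, 2 (JUNB and ATF3) were gained in Epi-HOTΔL against Epi-HOT, 1 was kept in Epi-HOTΔL against Epi-CTR, and the difference of the arms turned for FOSL2 (1.71 percentage points). In the central 20 kb, 0 windows were lost in Epi-HOT and 0 gained in Epi-HOTΔL; asking for 10% coverage, or the central 50 kb, also gave 0 gained in Epi-HOTΔL. With lists of equal length, 1 window was lost in Epi-HOTΔP against Epi-CTR, and the arms turned for FOSB (1.5 points) and FOSL2 (10.8 points). The counts of windows under these settings stand without a share of tiled windows, so they cannot be set against a background. Leaving out each library gave 1 to 7 windows lost in Epi-HOT, 1 to 6 gained in Epi-HOTΔL against Epi-HOT, 0 to 2 changed between Epi-HOTΔP and Epi-HOT, 6 to 7 kept in Epi-HOTΔL against Epi-CTR and 3 to 7 lost in Epi-HOTΔP against Epi-CTR. Over all settings that leave libraries out, the difference of the arms was -66.5 (without Epi-HOT replicate 1) to -16.5 points (without both that stood apart) for JUNB, -52.1 to 1.60 for JUND, -29.6 to 27.3 for FOSB, -45.5 to 14.4 for FOSL1 and -30.7 to 8.43 for FOSL2. The arms turned for FOSB without Epi-HOT replicate 2 or Epi-HOTΔP replicate 1 (2.77 points each) or Epi-HOTΔL replicate 2 (0.267 points). Without both libraries that stood apart, 2 windows changed between Epi-HOTΔP and Epi-HOT, and the arms turned for JUND (1.60 points), FOSB (27.3), FOSL1 (14.4) and FOSL2 (8.43). The cause of these changes was not tested.

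The count of genes past an adjusted p of 0.05 between the arms was 0 under every alternative run. No alternative allowed a smaller exact permutation p than the main test, so no gene could have passed there either. With the replicate number as a block (replicate block), the count was 0 and the smallest exact permutation p was 0.0556, for ATF3, the smallest that 36 splits allow. Whether the numbers pair the libraries is not stated. Deviations from the line means of same-numbered libraries correlated at -0.450 to 0.444 over the tiled windows in the 6 pairs of lines. With 2 libraries a line, these deviations also carry the difference in list length within a line, so they cannot show whether numbers pair libraries. Depth is unknown, so absence of an island sets no limit on binding.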
